A study of Mus musculus with 6 samples.

Results

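The transcripts described here are 10 genes of the glucocorticoid and FoxO response in skeletal muscle: Fkbp5, Tsc22d3, Nr3c1, Klf15, Foxo1, Foxo3, Ddit4, Sesn1, Mt1 and Mt2. They were taken by gene symbol from the 23238 distinct symbols of the deposited count tables, and all 10 were found, each on a single symbol. The list was drawn up with the farnesol and vehicle values of these libraries in view, and Fkbp5 was named in it because it was lower after farnesol. Differences between farnesol and vehicle in these 10 genes are therefore given as descriptions, with a standard error and without a test. RNA came from the gastrocnemius, a calf muscle, of 26-month-old wild-type mice whose strain the labels give as C57/BL6J. The mice received farnesol by mouth at 350 mg/kg, or its vehicle (5% DMSO in normal saline), for 30 days, and there were 3 libraries in each group. All animals were aged and none was young, so nothing here describes ageing itself. Whether each library came from a separate mouse is not stated beyond the words "biol rep" in the titles.

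Glucocorticoid hormones enter muscle fibres and bind the glucocorticoid receptor, which moves to the nucleus and raises the transcription of a set of target genes. FoxO transcription factors are held in the cytoplasm when insulin signalling is active and act in the nucleus when it falls, as in fasting, where they turn on genes of protein breakdown. The pathways meet on shared targets in muscle, among them ubiquitin ligases and brakes on the growth kinase mTOR, and both are known from fasting, disuse and steroid-induced muscle loss.

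Mt1 and Mt2 encode metallothioneins, small cysteine-rich proteins that bind zinc and copper and are induced by metals through the factor MTF-1 and by glucocorticoids. They lie side by side on chromosome 8 of the mouse, Mt2 at 94172618 to 94173567 and Mt1 at 94178883 to 94180327 (RefSeq on GRCm38.p6, both on the plus strand). Letters from the promoter windows of both genes, 250 bases each, are shown. Mt1 and Mt2 varied together between libraries, and whether these letters have a part in that was not tested. Capitals mark the metal response element (TGCACNC or TGCGCNC, searched on both strands) and, in Mt1, a glucocorticoid element (GNACA, any 3 bases, TGTNC). For Mt2 the 250 bases before the start are given, chr8:94172368-94172617. For Mt1, whose RefSeq span begins inside its promoter window (that window ends before a start at 94179089), 2 short stretches are given, chr8:94178987-94179015 around the glucocorticoid element and chr8:94179058-94179080 around the metal element.
Mt2: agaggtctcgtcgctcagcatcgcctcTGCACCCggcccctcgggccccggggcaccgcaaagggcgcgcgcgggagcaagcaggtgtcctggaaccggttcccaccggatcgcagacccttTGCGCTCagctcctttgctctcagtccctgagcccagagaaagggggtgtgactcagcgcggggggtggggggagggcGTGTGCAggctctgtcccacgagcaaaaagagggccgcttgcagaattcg
Mt1, glucocorticoid element: cactatagGGACATGATGTTCcacacgtc
Mt1, metal element: tcccgctgTGCACACtggcgctc

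The Mt2 window held 3 metal response elements and the Mt1 window 1, and windows of Klf15, Foxo3 and Ddit4 also held 1 each. The Mt2 window lies wholly before the RefSeq start of the gene. The Mt1 window begins at 94178839 and the RefSeq span at 94178883, so most of that window lies inside the span. The counts of 3 and 1 therefore do not compare like stretches. Of the 32851 promoter windows of 250 bases in the RefSeq table, 21.4% held at least 1 such element and 1.26% held 3 or more. The glucocorticoid element in the Mt1 window occupied positions 94178995 to 94179007, and 0.387% of all windows held a match to it on either strand. Of the 10 genes, 9 had a window in the table and Nr3c1 had none. No other member's window held the glucocorticoid element, and a match to the half-site AGAACA stood in 1 window of Tsc22d3, against 16.1% of all windows. The FoxO site TGTTTAC was found in no member's window and in 3.17% of all windows, and its core TGTTT, which the longer site contains, in windows of Foxo1, Sesn1 and Tsc22d3 and in 46.4% of all. Both strands were searched for each motif. These matches describe letters in short windows and say nothing about binding of a factor here or elsewhere in the gene.

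Libraries held 9895700 to 12707751 counts, and levels are given as CPM, counts scaled to a fixed library size, corrected by trimmed-mean (TMM) factors of 0.905 to 1.14. The muscle identity of the samples was plain, since 9 fibre markers such as Acta1 and Myh4 summed to 112560 to 169131 CPM in vehicle and 143688 to 155934 CPM in farnesol libraries. Of the 10 genes, 9 passed the filter on low counts and were among the 11674 genes fitted with edgeR's quasi-likelihood model. Over all genes 0 (0%) passed an adjusted p of 0.05 in edgeR, and 351 (3.01%) had an unadjusted p under 0.05; DESeq2 and limma-voom also called 0, with 416 and 361 genes at an unadjusted p under 0.05. In tissue RNA, fewer cells of a type and less RNA per cell cannot be told apart.

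Fkbp5 (chromosome 17, 28398753 to 28486149, minus strand) encodes FKBP51, a co-chaperone that lowers the receptor's affinity for hormone and is itself a glucocorticoid target, closing a short feedback loop. It stood at 49.3, 60.6 and 59.0 CPM in vehicle replicates 1 to 3 and at 33.6, 48.9 and 25.7 CPM in farnesol replicates 1 to 3. The groups did not overlap, as in 8.82% of all tested genes, but farnesol replicate 2 lay close to vehicle replicate 1, at 0.992 times its value, from 585 and 515 counts. The means were 56.3 ± 6.12 and 36.1 ± 11.8 CPM (SD, n = 3 each), a log2 fold change of −0.64 (SE 0.21) from edgeR. With 1 library left out it lay between −0.92 (without farnesol replicate 2) and −0.45 (without farnesol replicate 3). With a filter at a mean of 5 CPM, which changes the scaling slightly, the Fkbp5 groups overlapped, and in the other 12 alternatives with library values they did not. Among those 12, the ones that leave out a library or add a replicate block could hardly bring an overlap.

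Nr3c1 (chromosome 18, 39410545 to 39519421, minus strand) encodes the glucocorticoid receptor. Its transcript was at 115, 69.9 and 81.6 CPM in the vehicle libraries and at 60.7, 75.2 and 83.8 CPM in the farnesol libraries. The groups overlapped, and 1 vehicle library, replicate 1, was higher than the other 5. The log2 fold change was −0.28 (SE 0.19), and −0.05 without vehicle replicate 1.

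The classical targets of the receptor did not share 1 pattern. Tsc22d3 (chromosome X, 140539528 to 140600522, minus strand) encodes GILZ, a leucine zipper protein that carries part of the anti-inflammatory action of glucocorticoids. It was at 364, 256 and 266 CPM in vehicle and at 321, 313 and 290 CPM in farnesol libraries. The farnesol values lay inside the vehicle range, and the log2 fold change was 0.06 (SE 0.16). Klf15 (chromosome 6, 90461043 to 90491803, plus strand) encodes a zinc finger factor that the receptor induces and that promotes amino acid breakdown. Its levels were 20.3, 35.4 and 18.4 CPM in vehicle and 19.8, 21.3 and 19.9 CPM in farnesol libraries. Vehicle replicate 2 alone was high, the other 5 libraries lay between 18.4 and 21.3 CPM, and the log2 fold change of −0.28 (SE 0.24) became 0.07 without that library.

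**Figure D1:**
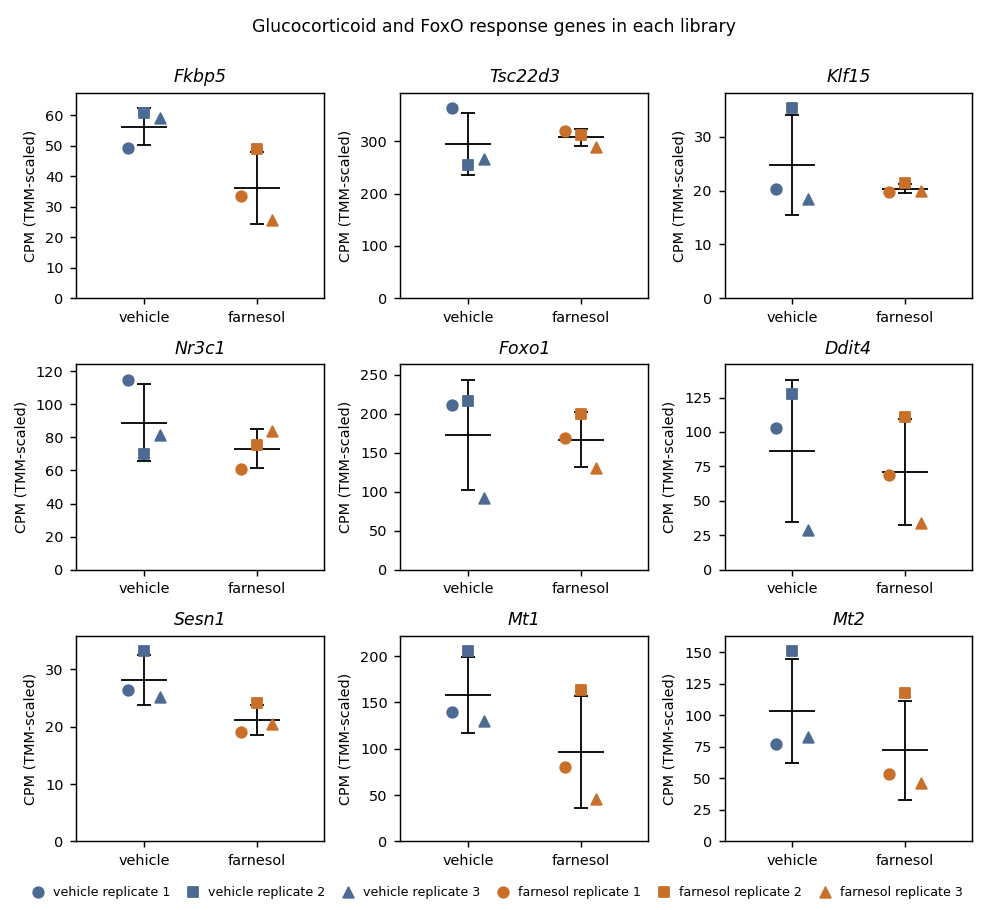
Level of each of the 9 fitted genes in CPM (y axis, starting at 0) in the vehicle and farnesol libraries (x axis). Each point is a library, with a marker shape for its replicate number, the wide bar is the mean of 3 libraries and the whiskers are 1 SD; Fkbp5 and Sesn1 are the 2 genes whose groups do not overlap, and in Foxo1 and Ddit4 replicate 3 is the lowest library of both groups.

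Among the FoxO factors, Foxo1 (chromosome 3, 52268337 to 52350109, plus strand) passed the filter on low counts and Foxo3 did not. Foxo1 stood at 211, 216 and 91.6 CPM in vehicle and at 170, 200 and 130 CPM in farnesol libraries. Replicate 3 was the lowest library in each group, the groups overlapped, and the log2 fold change was −0.05 (SE 0.32), positive in 6 of 15 alternatives. Foxo3 (chromosome 10, 42181845 to 42276695, minus strand) had 4, 12 and 3 counts in vehicle and 0, 5 and 2 counts in farnesol libraries. The 0 allows up to 3 counts, or 0.264 CPM in that library, and a difference in Foxo3 was not detectable from counts this low. Of the other family members, Foxo4 had 658 to 997 counts per library (log2 fold change 0.01, SE 0.19) and Foxo6 had 35 to 125 (0.42, SE 0.42). A noncoding gene annotated antisense to Foxo1, Gm20402, overlaps its exons, and the counting is not stated to use strand.

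Ddit4 and Sesn1 are brakes on the growth kinase complex mTORC1 that stress and fasting turn on. Ddit4 (chromosome 10, 59949675 to 59951770, minus strand), also called REDD1, acts through the tuberous sclerosis complex and is induced by glucocorticoids. It stood at 103, 128 and 28.8 CPM in vehicle and at 68.7, 111 and 34.1 CPM in farnesol libraries. The highest library had 4.44 times the level of the lowest, both of them vehicle libraries, and the log2 fold change of −0.28 had an SE of 0.73. Its paralogue Ddit4l was at 318, 164 and 285 CPM in vehicle and at 208, 199 and 296 CPM in farnesol libraries, so that replicate 3, lowest for Ddit4 in both groups, was not the lowest for Ddit4l in either.

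Sesn1 (chromosome 10, 41810574 to 41908436, plus strand) encodes sestrin 1, a leucine-binding protein that restrains mTORC1 through the GATOR complexes. Its levels were 26.3, 33.2 and 25.1 CPM in vehicle and 19.0, 24.2 and 20.5 CPM in farnesol libraries. Each farnesol library lay below each vehicle library, in the full set and in the 13 alternatives with library values. Leaving out a library removes values and the replicate block leaves them unchanged, so those alternatives could hardly bring an overlap. The means were 28.2 ± 4.33 and 21.2 ± 2.65 CPM (SD, n = 3 each), and the log2 fold change was −0.41 (SE 0.21), between −0.51 and −0.28 over the alternatives. Sesn2 had 0 to 6 counts per library and Sesn3 23 to 56.

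The metallothioneins had lower means after farnesol and groups that overlapped through farnesol replicate 2. Mt1 stood at 139, 205 and 130 CPM in vehicle and at 80.8, 163 and 45.3 CPM in farnesol libraries. Mt2 stood at 77.3, 151 and 82.6 CPM in vehicle and at 53.5, 117 and 46.2 CPM in farnesol libraries. In both genes replicate 2 was the highest library of each group, and farnesol replicate 2 exceeded vehicle replicates 1 and 3, while farnesol replicates 1 and 3 lay below every vehicle library. The log2 fold changes were −0.71 (SE 0.51) for Mt1 and −0.51 (SE 0.45) for Mt2. They moved with single libraries: without farnesol replicate 2 they were −1.32 and −1.05, and Mt1 was at −0.38 without farnesol replicate 3 and Mt2 at −0.14 without vehicle replicate 2.

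Mt1 gave 1.80, 1.36 and 1.57 counts per count of Mt2 in the vehicle libraries and 1.51, 1.39 and 0.982 in the farnesol libraries. The log2 ratio averaged 0.65 ± 0.20 in vehicle and 0.35 ± 0.33 in farnesol libraries (SD, n = 3 each), and the ranges overlapped. The longest run of bases shared by any annotated transcripts of the pair was 20, and 10 within their last 100 bases. Mt2 overlaps the exons of an annotated antisense gene, Gm45774. Mt3 had 2 to 13 counts per library.

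**Figure D2:**
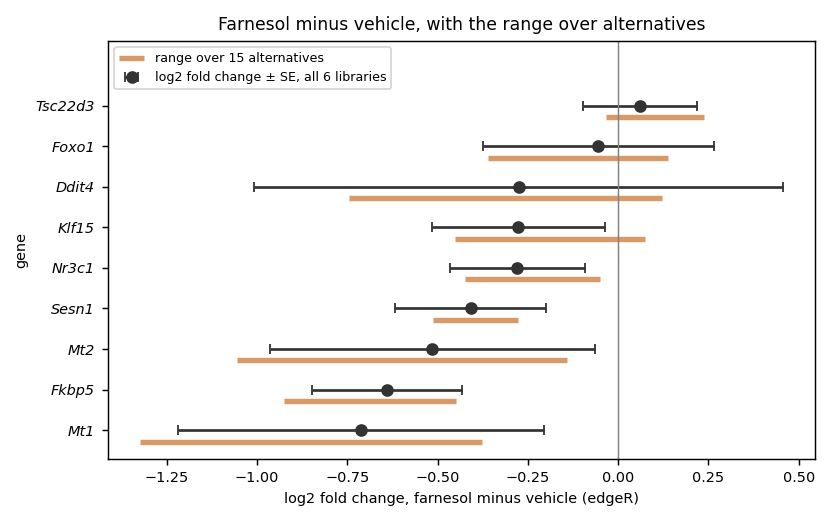
Log2 fold change of farnesol minus vehicle (x axis) for the 9 fitted genes (y axis), as points with 1 SE from all 6 libraries; the bar under each point is the range over 15 alternatives of scaling, filter, model and left-out library. The bars of Tsc22d3, Foxo1, Ddit4 and Klf15 cross 0, and those of Nr3c1, Sesn1, Mt2, Fkbp5 and Mt1 do not.

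Of the 9 genes fitted, 8 had a lower mean after farnesol and 1, Tsc22d3, a higher one, with a median log2 fold change of −0.28. Over all 11674 genes 50.9% were lower and the median was −0.01. The groups did not overlap in 2 of the 9, Fkbp5 and Sesn1, both lower, against 4.07% of all genes with farnesol lower, and nothing is read from this because the list was chosen on the same contrast. None of the 9 passed over all genes in edgeR, DESeq2 or limma-voom. The count of lower genes ran from 6 (without vehicle replicate 2 or without farnesol replicate 3) to 9 (without vehicle replicate 3).

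The spread between libraries of the same group does not use the contrast, and it separated the 9 genes. The biological coefficient of variation (BCV), the relative spread that remains after counting noise, was set against the value edgeR's trend gives to a gene of that abundance. Ddit4 had a BCV of 59.7% where the trend gave 16.1%, a ratio of 3.71 that exceeded that of 99.97% of tested genes. Mt1 stood at 42.2% against 15.7%, Mt2 at 37.7% against 16.0% and Foxo1 at 27.5% against 15.6%, ratios that exceeded those of 99.9%, 99.8% and 99.3% of tested genes. Fkbp5 (18.5% against 17.1%), Nr3c1 (17.2% against 16.1%) and Klf15 (20.8% against 19.8%) lay slightly above the trend. Their ratios still exceeded those of 86.1%, 83.9% and 80.7% of tested genes. Sesn1 (18.3% against 19.4%) and Tsc22d3 (15.2% against 15.4%) lay below the trend, with ratios above those of 29.3% and 56.8% of tested genes. These percentiles are descriptions of 6 libraries, with no test.

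**Figure D3:**
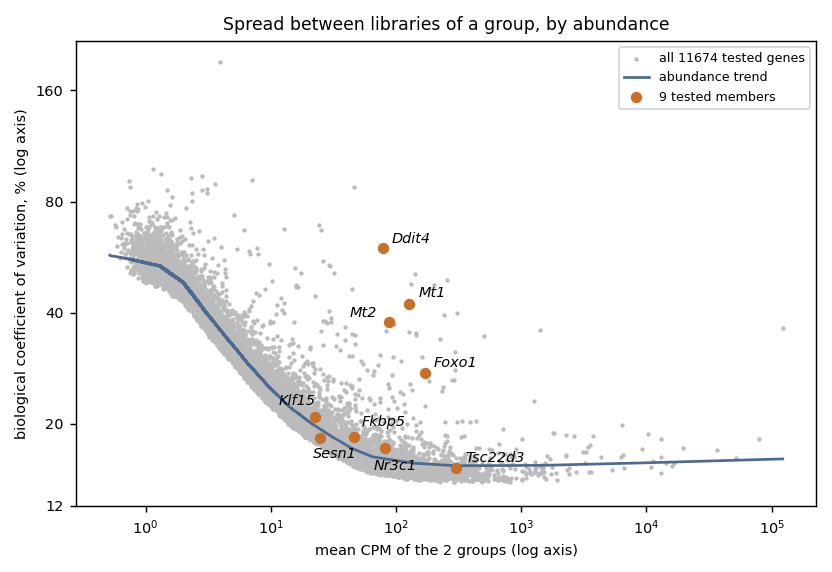
Biological coefficient of variation in percent (y axis, log scale) against mean CPM (x axis, log scale) for all 11674 tested genes (grey) with edgeR's abundance trend (line) and the 9 fitted members (orange). Ddit4 at 59.7%, Mt1 at 42.2%, Mt2 at 37.7% and Foxo1 at 27.5% stand well above the trend, and the other 5 lie near it.

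Within groups, several genes were high or low in the same libraries. Replicate numbers follow the titles, and nothing says that they link a vehicle to a farnesol library. Ddit4 lay 1.32 log2 units below its group mean in vehicle replicate 3 and 0.90 below in farnesol replicate 3, and Foxo1 lay 0.82 and 0.33 below in the same libraries. After the group means were removed, Foxo1 and Ddit4 had a Pearson r of 0.97 over the 6 libraries (Spearman 0.94), the highest of the 36 pairs. Mt1 and Mt2 had an r of 0.92, and Fkbp5 an r of 0.94 with Mt1 and 0.86 with Mt2, with farnesol replicate 2 high and farnesol replicate 3 low in all 3 genes. Klf15 and Sesn1 had an r of 0.84, and Sesn1 had an r of 0.90 with Mt2 (Spearman 0.37). Klf15 and Sesn1 were highest in replicate 2 of each group, as were Fkbp5, Foxo1, Ddit4, Mt1 and Mt2. Nr3c1 had an r between −0.52 (Klf15) and 0.05 (Foxo1) with 7 of the other genes and 0.67 with Tsc22d3. All pairs share the same 6 libraries, so these values are descriptions. Few degrees of freedom remain once the group means are removed, so a high r arises easily among 36 pairs. Pairs of other genes were not computed for comparison.

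**Figure D4:**
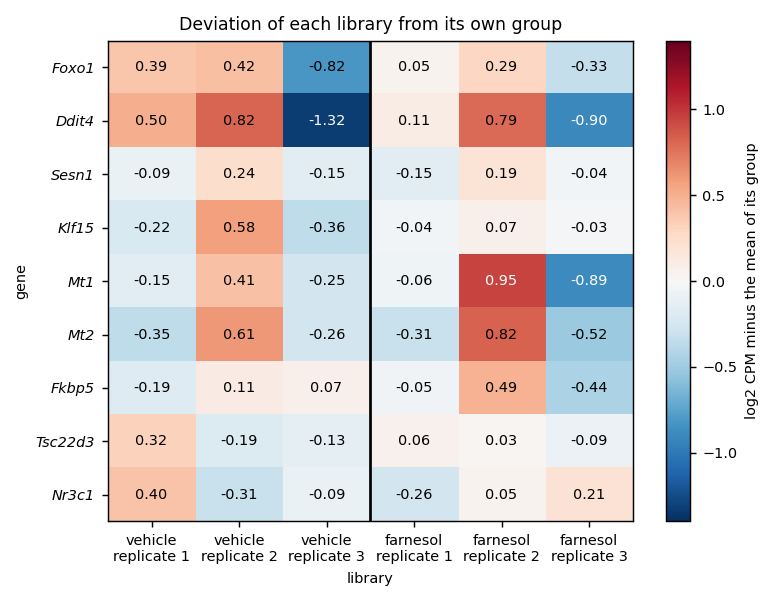
Log2 CPM of each gene (rows) in each library (columns) minus the mean of that library's group, with red for higher and blue for lower. Ddit4 and Foxo1 are lowest in replicate 3 of both groups, at −1.32 and −0.82 in vehicle and −0.90 and −0.33 in farnesol. Mt1, Mt2, Fkbp5, Sesn1 and Klf15 are highest in replicate 2 of both groups, as are Ddit4 and Foxo1.

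**Figure D5:**
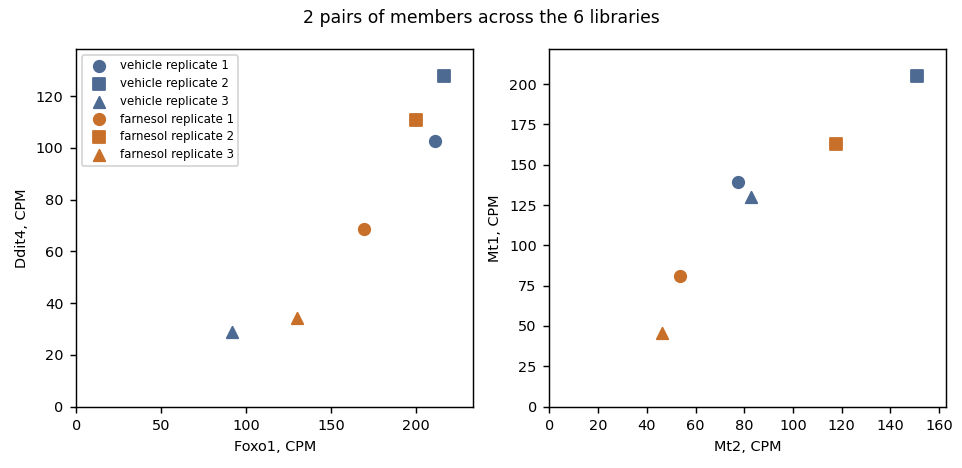
Levels of Ddit4 against Foxo1 (left) and Mt1 against Mt2 (right) in CPM, with 1 point per library. The 2 libraries with replicate number 3 hold the lowest Foxo1 and Ddit4, and the 2 with number 2 hold the highest Mt1 and Mt2.

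Several measures of the libraries are given beside these patterns, and their part in them was not tested. The 45S ribosomal precursor Rn45s took 9.92% of counts in vehicle replicate 3 and 14.2% in farnesol replicate 3, the libraries with low Ddit4, and 4.97% to 15.4% over all 6. Summed fibre markers were lowest in vehicle replicate 3 (112560 CPM) and stood at 143688 CPM in farnesol replicate 3. The 8 macrophage markers summed to 89.5 to 224 CPM in vehicle libraries, highest in replicate 3, and to 116 to 152 CPM in farnesol libraries, with 7 of 8 lower in mean after farnesol (median log2 fold change −0.25). Adipocyte markers (8 genes) summed to 430 to 608 CPM in vehicle and 479 to 735 CPM in farnesol libraries, with 7 of 8 higher in mean (median 0.66). The groups of Plin1, Cidec, Lep and Retn were apart with farnesol higher, as in 4.75% of all tested genes. Those of Adipoq, Cfd, Fabp4 and Plin4, which made up most of the sum, overlapped, and Plin4 was lower in mean. Endothelial markers (7 genes) summed to 110 to 153 and 109 to 142 CPM. Fibro-adipogenic markers (6 genes) summed to 740 to 817 and 810 to 859 CPM, satellite cell markers (4) to 28.6 to 47.3 and 26.9 to 43.0 CPM, Schwann cell markers (5) to 53.6 to 70.5 and 69.4 to 82.3 CPM, and tendon markers (5) to 140 to 181 and 155 to 188 CPM. The 4 satellite cell markers were all lower in mean after farnesol (median −0.18), Pax7 and Myf5 from few counts. Erythroid markers (6) summed to 3496 to 5676 CPM in vehicle and 5465 to 9711 CPM in farnesol libraries, with 5 of 6 higher in mean (median 0.49). Without TMM factors the erythroid sums were apart, at 3302 to 5137 CPM in vehicle and 5359 to 10784 CPM in farnesol libraries. Lymphocyte markers (6) summed to at most 6.70 CPM in any library.

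The rest of the pathways was read from 8 lists, 172 genes in all, of which 167 were tested. None passed over all genes in edgeR in either direction, 4 had an unadjusted p under 0.05, and 71 had a higher and 96 a lower mean (median −0.02 on the log2 scale). In 8 of them every farnesol library lay below every vehicle library and in 6 above, against 4.07% and 4.75% of all tested genes.

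Of the other glucocorticoid-induced genes, 22 were tested, 8 with a higher and 14 with a lower mean, and their median change was −0.16 on the log2 scale. That median was −0.01 without vehicle replicate 2, −0.04 without farnesol replicate 1, −0.08 without farnesol replicate 3 and −0.33 without farnesol replicate 2. Rgs2, a brake on G protein signalling, was at 21.9 ± 2.68 CPM in vehicle and 13.8 ± 5.59 CPM in farnesol libraries (−0.67, SE 0.26). Cebpb, a transcription factor that acts beside the receptor, was at 47.8 ± 0.684 and 37.6 ± 4.93 CPM (−0.34, SE 0.18), with groups apart. In the other direction, Arrdc2, an arrestin-domain protein, stood at 17.3 ± 6.96 and 25.2 ± 1.49 CPM (0.55, SE 0.26), with groups apart, and Dusp1, a phosphatase of MAP kinases, at 39.9 ± 10.4 and 50.4 ± 5.98 CPM (0.34, SE 0.20).

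The receptor's machinery (chaperones, co-regulators and the enzymes that regenerate active hormone) had 16 of 19 tested genes lower and a median of −0.12, which was −0.19 without farnesol replicate 3 and −0.07 without vehicle replicate 1 or farnesol replicate 1. The co-activator Ncoa1 was at 29.6 ± 4.14 and 23.6 ± 3.06 CPM (−0.33, SE 0.20), and the chromatin remodeller Smarca4 at 109 ± 5.60 and 95.9 ± 5.41 CPM (−0.18, SE 0.15), with groups apart. The co-activator Ncoa3 stood at −0.36 (SE 0.31). Hsd11b1, which turns inactive into active glucocorticoid, had 8 to 35 counts per library (−0.21, SE 0.68). Fkbp4, the co-chaperone that competes with FKBP51 on the receptor, was at 123 ± 8.45 and 119 ± 6.37 CPM (−0.05, SE 0.15). The second corticosteroid receptor, Nr3c2, had 0 to 21 counts per library (−1.43, SE 1.33).

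Among the 28 FoxO-induced genes of muscle, 11 means were higher and 17 lower after farnesol (median −0.05). Single libraries moved it: it was −0.10 without vehicle replicate 2, −0.01 without vehicle replicate 3, −0.09 without vehicle replicate 1, −0.08 without farnesol replicate 2 and −0.02 without farnesol replicate 3. Fbxo32, the ubiquitin ligase atrogin-1, had the smallest p of the list, at 1310.2 ± 204 CPM in vehicle and 857 ± 112 CPM in farnesol libraries (log2 fold change −0.61, SE 0.16), with groups apart. Trim63, the ligase MuRF1, was at 1141 ± 312 and 879 ± 183 CPM (−0.38, SE 0.20) and Txnip, a thioredoxin-binding protein, at 488 ± 27.6 and 396 ± 58.5 CPM (−0.30, SE 0.15), the groups of Txnip also apart. Sod2, the mitochondrial superoxide dismutase, was at 122 ± 14.9 and 144 ± 14.99 CPM (0.24, SE 0.16). Regulators upstream of FoxO had 12 of 21 lower and a median of −0.08, which was −0.15 without farnesol replicate 2, −0.14 without farnesol replicate 3 and −0.13 without vehicle replicate 1. Among them the phosphoinositide kinase subunit Pik3r1 stood at −0.28 (SE 0.21), the growth factor Igf1 at −0.29 (SE 0.24) and Ywhab, a 14-3-3 protein that holds FoxO in the cytoplasm, at −0.18 (SE 0.16).

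Around Ddit4 and Sesn1, the mTORC1 core and its brakes had 16 of 24 lower and a median of −0.03. That median changed sign with 1 library, to 0.01 without vehicle replicate 3, and was −0.08 without farnesol replicate 2, −0.06 without vehicle replicate 1, −0.05 without vehicle replicate 2 and −0.01 without farnesol replicate 3. Tsc1, a subunit of the tuberous sclerosis complex through which Ddit4 acts, was at 61.7 ± 4.34 CPM in vehicle and 46.7 ± 5.73 CPM in farnesol libraries (−0.40, SE 0.17), with groups apart. Eif4ebp1, a repressor of translation that mTORC1 inactivates, was at 45.2 ± 23.3 and 33.3 ± 12.4 CPM (−0.44, SE 0.40). The GATOR subunits Seh1l and Sec13 stood at −0.37 (SE 0.29) and 0.23 (SE 0.23).

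Around the metallothioneins, zinc transporters and their regulator Mtf1 had 11 of 16 lower and a median of −0.08, which was −0.20 without vehicle replicate 3 and −0.17 without farnesol replicate 3. Slc39a10, a zinc importer, was at 8.02 ± 3.23 and 5.03 ± 1.10 CPM (−0.67, SE 0.36), and Slc39a14, another importer, at 1.57 ± 0.261 and 2.68 ± 0.288 CPM (0.77, SE 0.58), with groups apart. Slc39a7 and Slc30a4 stood at −0.26 (SE 0.20) and −0.29 (SE 0.25). Around Klf15, genes of amino acid breakdown had 17 of 23 higher and a median of 0.05, which was 0.14 without vehicle replicate 2, 0.08 without replicate 3 of either group and 0.03 without farnesol replicate 2. Aldh6a1, of valine breakdown, was at 27.5 ± 6.86 and 33.5 ± 4.27 CPM (0.29, SE 0.21) and Gpt, an alanine aminotransferase, at 6.44 ± 1.501 and 8.42 ± 0.0523 CPM (0.38, SE 0.32), with groups apart in Gpt. Prodh, of proline breakdown, stood at 0.60 (SE 0.58) with groups apart and Got1 at 0.17 (SE 0.15). Paralogues of the 10 genes had 16 of 28 higher and a median of 0.03, which changed sign to −0.06 without farnesol replicate 1 and −0.02 without vehicle replicate 3, and was 0.06 without vehicle replicate 1. Among them Tsc22d4 stood at 19.99 ± 8.56 and 26.1 ± 3.91 CPM (0.38, SE 0.26), Tsc22d2 at −0.33 (SE 0.22) and Klf13 at 0.18 (SE 0.17).

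The tested genes most like Fkbp5 across the 6 libraries were St7, Npc1, Noc2l, Tmem101 and Pus10, with a Pearson r of log2 CPM of 0.97 to 0.99 among 10377 genes searched. Of the genes searched, 69 had an r above 0.9. The r includes the farnesol and vehicle difference for which Fkbp5 was chosen, so lower farnesol values in these genes follow from how they were picked. Npc1, which exports cholesterol from lysosomes, stood at 86.1, 98.8 and 95.6 CPM in vehicle and at 67.1, 78.4 and 59.2 CPM in farnesol libraries (log2 fold change −0.45, SE 0.16).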

How the data were processed

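Each library has its own table of raw, unnormalized counts by gene symbol, as deposited by the authors, with 23282 features; 35 symbols stood on more than 1 line and were summed. The labels' protocols name Lexogen QuantSeq and 500 ng of total RNA; this kind of library is designed to give 1 tag near the 3′ end of a transcript. The submitters' processing notes list Bowtie2, bedtools and mm10. Software versions, annotation, strand and handling of multi-mapping reads are not stated.

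edgeR 4.0.16 (R 4.3.3) was run on all genes: filterByExpr, TMM factors, estimateDisp, glmQLFit and glmQLFTest with robust fits, Benjamini-Hochberg adjustment, threshold 0.05. A standard error is the size of the log2 fold change divided by the root of the F statistic. Log2 CPM used a prior count of 2. DESeq2 1.42.0, limma 3.58.1 (voom), other scalings and filters, a replicate block and leaving out each library were tried. The model was tested on 1 simulated set of 11674 genes. Changes were planted only in genes above a floor on mean CPM, 100 genes at each size. Of those changed by 1 log2 unit 79% were recovered and of those changed by 2 100%, and 7.73% of the calls were false. These rates do not cover genes under the floor and do not give the chance of recovering any single member. The planted changes were larger than that of any member in the full set. Planting many at once also makes the adjusted threshold easier to pass, so the rates do not carry over to data without calls. Each group holds 3 libraries; with no statement that they are separate animals, the p-values reflect spread among libraries only, which may be technical. Depths of 9895700 to 12707751 counts put the limit of a 0 count (3 counts) at 0.251 to 0.309 CPM; this covers counting error only.

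The members, lists, markers and tests were chosen with earlier results of these data known. Named genes are the 10 members, up to 4 tested genes of smallest unadjusted p per list, the 5 genes most like Fkbp5 with a mean of at least 20 counts, marker lists and paralogues, apart from a few not reported here. Hsd11b1, Sgk1, Per1, Pdk4, Gm20402 and Gm45774 were named after their values or annotation were seen. An exact test planned for the Mt1 to Mt2 ratio used the same contrast and is not given. Sequences and positions are from RefSeq on GRCm38.p6, the assembly behind mm10; overlaps and transcripts are from GENCODE vM21. Counts were not divided by length; the Mt1 to Mt2 ratio is compared between libraries and says nothing of which gene is more abundant.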

Additional observations from a re-analysis of the deposited data

How the results depend on the processing

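The 8 of 9 members lower after farnesol became 6 to 9 over 15 alternatives (of 10 where Foxo3 was tested) and 6 to 9 with 1 library left out, and the median log2 fold change of the members ran from −0.51 to −0.14. The sign of Foxo1 changed in 6 of 15 alternatives, of Tsc22d3 and Ddit4 in 2 each and of Klf15 in 1, while Fkbp5, Nr3c1, Sesn1, Mt1 and Mt2 kept theirs in all 15. The smallest adjusted p of any member in any alternative was 0.385 (Fkbp5, edgeR without the low-count filter). Genes called over the whole table numbered 0 in the full set, 13 in edgeR without the low-count filter and 0 to 3 with 1 library left out, with 3 without vehicle replicate 2; none was a member or a listed pathway gene. Genes whose groups did not overlap numbered 1030, then 677 with a mean of at least 5 CPM (8099 genes tested) and 2144 to 2337 with 1 library left out, where fewer samples make separation easier. The log2 ratio of Mt1 to Mt2 was lower in farnesol by −0.30, and by −0.43 to −0.12 with 1 library left out. The labels give replicate numbers 1 to 3 in each group without saying that they mark a shared animal or day. The count columns are numbered differently from the titles, and not alike in vehicle and farnesol, so equal numbers need not belong together. Deviations of same-numbered libraries correlated across genes at 0.04, 0.06 and −0.02. Vehicle replicates 1 and 2 correlated best with the farnesol library of the same number, and vehicle replicate 3 with farnesol replicate 1 (0.04). With values this small and no statement in the labels, the numbers were not taken as pairs. With a replicate block 0 genes were called, 7 of 9 members were lower, and the members' median was −0.26. Counts of Foxo3, Sesn2, Mt3 and Nr3c2 were too few to show a difference, and why they were low was not tested.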

Other observations

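Sgk1, a kinase that glucocorticoids induce and that phosphorylates FoxO factors, was chosen after its values were seen, as were Per1 and Pdk4. It stood at 88.4, 103 and 47.7 CPM in vehicle replicates 1 to 3 and at 83.9, 129 and 49.1 CPM in farnesol replicates 1 to 3 (log2 fold change 0.13, SE 0.42). Replicate 3 was the lowest and replicate 2 the highest library in each group, the same order as Ddit4. With group means removed, its Pearson r over the 6 libraries was 0.97 with Ddit4, 0.89 with Foxo1 and 0.88 with Mt1, and −0.15 with Nr3c1. The clock gene Per1, also a glucocorticoid target, was at 22.6, 34.7 and 15.6 CPM in vehicle and at 26.7, 23.1 and 11.4 CPM in farnesol libraries, lowest in replicate 3 of each group. Pdk4, a fasting-induced kinase of pyruvate dehydrogenase, was at 57.3, 234 and 124 CPM and at 93.3, 168 and 112 CPM, highest in replicate 2 of each group and not lowest in replicate 3. All of these ranges within a group exceeded the difference between the group means. Other glucocorticoid-induced genes did not all share this order. Rgs2 and Dusp1 were highest in replicate 3 of each group, Arrdc2 was lowest there, and Cebpb was lowest there only in farnesol.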
